A study of Mus musculus with 4 samples.

Results

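The genes described here are p53 and 31 genes tied to it, most of them known targets that p53 switches on, 32 in all. They were chosen by name, with earlier results of these data known. Each is read from the probe sets whose annotation gives exactly 1 of these gene symbols. Of the 32, 28 were found among the 22180 genes measured, each with 1 probe set, and Trp53, Ddb2, Gdf15 and Fdxr were not analysed here. The cells are 4T1, a mouse mammary carcinoma line, carrying either a hairpin RNA of scrambled sequence (scramble, 2 arrays) or a hairpin against Ldha (shLDHA, 2 arrays), the gene of lactate dehydrogenase A. The shLDHA cells are a pool of cells selected with puromycin at 10 µg/ml. Selection of the scramble cells is not stated, so selection and knockdown cannot be told apart. Both groups grew for 24 hours in complete RPMI medium, and Affymetrix whole-transcript arrays were run on 400 ng of RNA from each sample. Nothing states that the 2 replicates of a group were separate cultures, so the p-values measure only the spread between arrays, which may be technical.

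The transcription factor p53 is held at a low level by Mdm2, a ubiquitin ligase that is itself a p53 target, and by its partner Mdm4. DNA damage and other stresses free p53 from them, and it then raises genes that stop the cell cycle, repair DNA, change metabolism or start cell death. Many of these genes also answer to other factors, so their transcripts can be made without p53. As background from outside these data, 4T1 is commonly described as lacking functional p53.

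The arrays were alike in scale, with medians of 3.87 to 3.90 on the log2 scale. Arrays of 1 group correlated across genes, which are not independent replicates, at r = 0.997, and arrays of different groups at r = 0.993. The targeted transcript read 6.69 and 6.96 in scramble and 6.31 and 6.15 in shLDHA, 1.51-fold lower by limma (log2 change -0.59, SE 0.12, adjusted p = 0.0390). That call was lost without scramble replicate 2 (adjusted p = 0.128), shLDHA replicate 1 (0.0965) or shLDHA replicate 2 (0.163), and with the replicate number as a block in the fit (replicate block, 0.0734). All 6 epithelial markers (Epcam, Cdh1, Krt7, Krt8, Krt18, Krt19) were above the level of 95% of olfactory receptor genes, which a mammary line is not known to use, in both groups. None of the 5 leukocyte or 4 endothelial markers and 1 of the 6 fibroblast markers (Pdgfra) was. Of the 6 epithelial markers, Epcam (0.53, adjusted p = 0.0178) and Krt8 (0.47, adjusted p = 0.0255) passed limma's test as higher in shLDHA, and Krt7 (0.25), Krt18 (0.24), Cdh1 (0.04) and Krt19 (-0.33, adjusted p = 0.0853) did not pass. Both calls were lost in each of the 4 fits with an array left out (adjusted p 0.0650 to 0.0920 for Epcam and 0.0832 to 0.114 for Krt8), and that of Krt8 with the replicate block (0.0566). The mean of the 6 was 9.02 to 9.03 in scramble and 9.22 to 9.23 in shLDHA, and its part in the results on the p53 genes was not tested.

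The p53 genes did not move in 1 direction. Of the 28, 3 rose in shLDHA (Trp53inp1, Perp and Gtse1), 3 fell (Plk2, Plk3 and Epha2) and 22 did not pass, by limma with a Benjamini-Hochberg adjusted p below 0.05 as the threshold. The change of a gene is shLDHA minus scramble on the log2 scale, and the median over the 28 was 0.01, as over all genes tested (0.01). As a share, 21.4% of the 28 passed, against 6.36% of all genes, with 3.37% of all genes higher and 2.99% lower. Because the members were chosen with earlier results of these data known, the shares in this paragraph are a description and no test of the set. The p53 genes are brighter than most, since 25 of the 28 lay above the olfactory receptor level (4.17 in scramble, 4.16 in shLDHA) in both groups, against 10509 of 22180 genes. Among genes above it, 24.0% of the p53 genes (6 of 25) and 11.5% of all genes passed. The size of the change regardless of sign had a median of 0.29 over these 25 genes and 0.15 over all 10509. The 2 shLDHA arrays lay both above or both below the 2 scramble arrays for 21 of the 28, where this held for 50.3% of all genes, and for 20 of the 25 brighter ones, where it held for 65.8%. Array signal comes from all the cells of a culture, so fewer cells that make a transcript and less transcript per cell cannot be told apart.

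**Figure D1:**
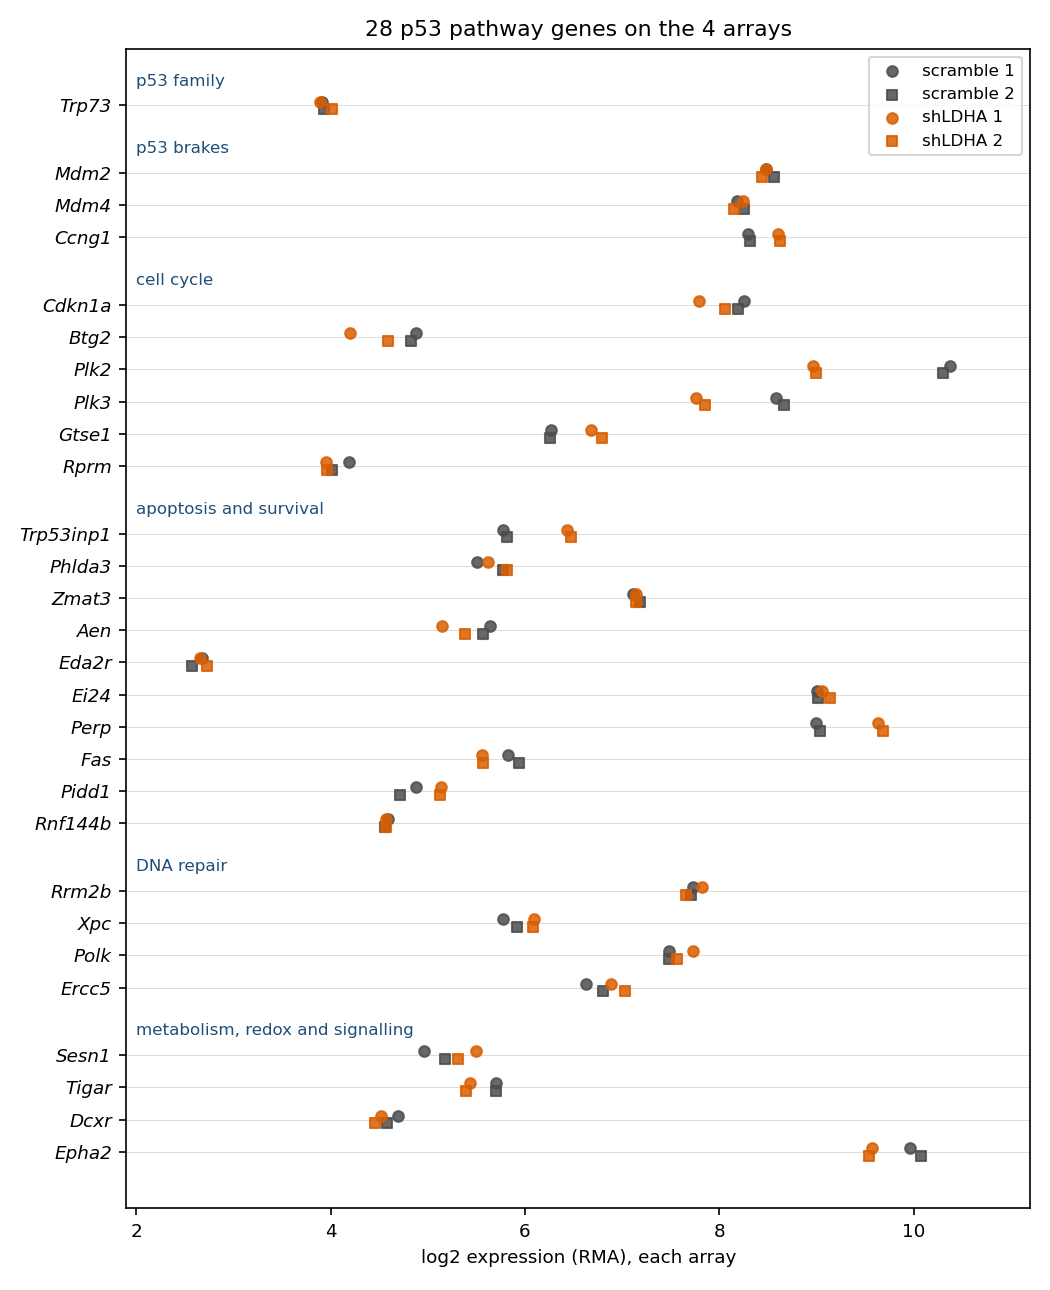
The log2 expression of the 28 genes (rows, grouped by role) on each array, with scramble in grey, shLDHA in orange, circles for replicate 1 and squares for replicate 2. Levels are to be compared within a row only, since each probe set has its own brightness; Plk2 shows the widest gap, with scramble at 10.38 and 10.30 and shLDHA at 8.96 and 9.00.

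**Figure D2:**
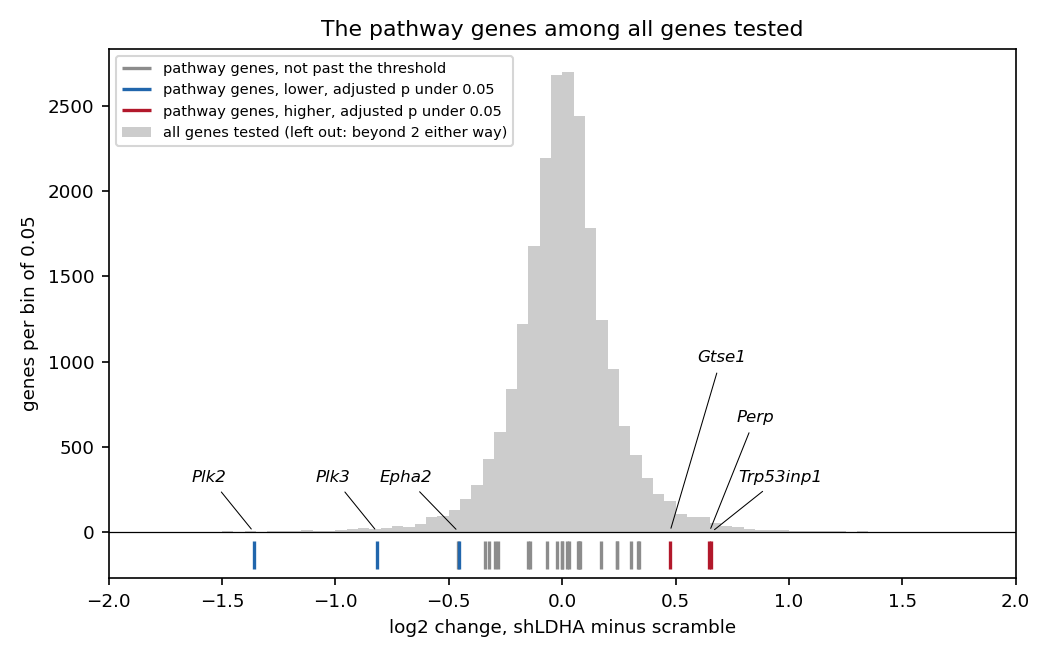
Histogram of the log2 change of all genes tested (grey bars, genes per bin of 0.05, changes beyond 2 left out), with a tick below the baseline for each of the 28 p53 genes. The 3 called lower (blue) and the 3 called higher (red) lie at the outer ends and the 22 uncalled genes (dark grey) between them, except Btg2, uncalled at -0.46, whose tick is covered by that of Epha2.

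The DNA to which p53 binds is a pair of half-sites of 10 bases, and it is shown here for the genes whose promoter holds one. The RefSeq promoter table (GRCm38.p6, 250 bases before to 50 after a start site) held 31 windows for 23 of the 28 genes. A search for the p53 half-site consensus, which reads alike on both strands, found a match in 9 of these windows, of 8 genes. It did so in 8.36% of all 32851 windows. Both windows of Aen overlap and hold the same match, which counts in each. Most of the genes were chosen as known p53 targets, so these shares are a description and no test. The consensus was RRRCWWGYYY (R is A or G, W is A or T, Y is C or T), and no mismatch was allowed, so sites that depart from it were missed. A pair of such exact matches with 0 to 13 bases between them lay in 1 window, of Cdkn1a, and in 0.0731% of all windows. In the sequences below, each 5′ to 3′ along the gene's strand and ending before the start site, the exact matches are in capitals:
Cdkn1a, chr17:29090886-29090957, plus strand: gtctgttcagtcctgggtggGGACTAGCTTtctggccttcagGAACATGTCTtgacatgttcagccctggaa
Mdm2, chr10:117710915-117710964, minus strand: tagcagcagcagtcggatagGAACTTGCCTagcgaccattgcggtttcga
Ccng1, chr11:40755442-40755491, minus strand: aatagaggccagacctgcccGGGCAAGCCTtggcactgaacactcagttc
Sesn1, chr10:41887246-41887295, plus strand: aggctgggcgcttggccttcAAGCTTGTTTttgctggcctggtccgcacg
Aen, chr7:78895917-78895966, plus strand: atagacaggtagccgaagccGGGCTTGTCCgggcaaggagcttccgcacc
Polk, chr13:96519389-96519437, minus strand: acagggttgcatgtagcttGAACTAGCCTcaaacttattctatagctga
Ei24, chr9:36797335-36797364, minus strand: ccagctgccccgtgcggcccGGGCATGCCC

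The exact matches of Cdkn1a lie at bases -73 to -64 and -51 to -42 from the upstream of its 2 start sites, with 12 bases between them. The bases that directly follow the second match, tgacatgttc, depart from the consensus only in their first base and so are not marked. Which of these stretches form a pair was not tested. The single exact match of Ccng1 lies at -185 to -176. The bases directly before it, agacctgccc, depart from the consensus in only 1 base, and whether the 2 stretches form a pair was not tested. The single exact match of Mdm2 lies at -186 to -177 and that of Ei24 directly before the start, at -10 to -1. Gtse1 has a half-site, GGGCTTGCCT, at bases 10 to 19 after 1 of its 2 starts. After 1 further base follows tgacttgcct, which departs from the consensus only in its first base. Whether these 2 form a pair was not tested. Gtse1 was the only one of the 6 called genes with an exact match, and Trp53inp1 and Perp had no window in the table. Among the genes with a match, Ccng1, Sesn1, Polk and Ei24 had changes above 0 and Cdkn1a, Mdm2 and Aen below 0, and only Gtse1 passed the test. These matches are letters in a reference sequence, and the windows leave out introns and distant elements, where p53 binds too. The gene with the largest change, Plk2, has no exact match in its window, whose 250 bases before the start are:
Plk2, chr13:110394794-110395043, plus strand: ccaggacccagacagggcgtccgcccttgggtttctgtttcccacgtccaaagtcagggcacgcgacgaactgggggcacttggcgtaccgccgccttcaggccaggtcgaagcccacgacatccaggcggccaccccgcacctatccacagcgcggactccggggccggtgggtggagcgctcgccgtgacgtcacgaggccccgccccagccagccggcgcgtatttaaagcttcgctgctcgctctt

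A shorter element, the CHR of cell cycle genes (TTTGAA, searched on both strands), was in the windows of Aen, Fas, Ercc5 and Epha2. That is 4 of 31 windows (12.9%), against 17.9% of all windows.

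Of the p53 family and its brakes, none passed the test. Trp73, which encodes the p53 relative p73, read 3.91 and 3.93 in scramble and 3.89 and 4.01 in shLDHA, below the olfactory receptor level in both groups, so nothing can be said of its transcript. Mdm2 read 8.49 and 8.57 in scramble and 8.48 and 8.44 in shLDHA. The change was -0.07 (95% interval -0.27 to 0.14). Mdm4 read 8.18 and 8.26 in scramble and 8.24 and 8.15 in shLDHA, so the groups overlapped, with a change of -0.02 (-0.23 to 0.19).

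Ccng1, which encodes cyclin G1, a p53 target that feeds back on Mdm2, was the brake with the largest difference. It read 8.30 and 8.32 in scramble and 8.61 and 8.62 in shLDHA. The replicates of each group lay close together, with an SD of 0.02 in scramble and 0.01 in shLDHA. The change was 0.30 (SE 0.08, limma adjusted p = 0.0860), past the threshold in 2 of 13 alternative settings and with an adjusted p from 0.00864 to 0.280.

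Genes of the cell cycle held the largest changes. Plk2, a polo-like kinase that p53 and also serum growth factors induce, read 10.38 and 10.30 in scramble and 8.96 and 9.00 in shLDHA. The 2 groups are far apart beside a spread of 0.05 and 0.02 (SD, n = 2) within them. Plk2 fell 2.57-fold (log2 change -1.36, SE 0.08, limma adjusted p = 0.000962). Its relative Plk3, a kinase of the stress response, read 8.58 and 8.67 in scramble and 7.77 and 7.86 in shLDHA, and fell 1.76-fold (log2 change -0.81, SE 0.09, limma adjusted p = 0.00539). Plk2 and Plk3 passed in 13 of 13 alternative settings, the fits with an array left out among them, with adjusted p of at most 0.0117 and 0.0407.

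Gtse1, which encodes a protein of G2 and S phase that binds p53 and carries it out of the nucleus, went the other way. It read 6.27 and 6.26 in scramble and 6.68 and 6.80 in shLDHA, and rose 1.39-fold (log2 change 0.47, SE 0.09, limma adjusted p = 0.0290). The call was lost without scramble replicate 1 (adjusted p = 0.101), scramble replicate 2 (0.111), shLDHA replicate 1 (0.0789) or shLDHA replicate 2 (0.128), and with the replicate block (0.0595).

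Cdkn1a, the gene of p21, the inhibitor of cyclin-dependent kinases through which p53 halts the cell cycle, did not pass. It read 8.25 and 8.19 in scramble and 7.80 and 8.06 in shLDHA. Both shLDHA arrays were below both scramble arrays, but they differed from each other by nearly as much as the groups did, with an SD of 0.19 against 0.04 in scramble. The change was -0.29 (95% interval -0.56 to -0.03, limma adjusted p = 0.191), and it was -0.16 without shLDHA replicate 1 and -0.43 without shLDHA replicate 2.

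Btg2, an antiproliferative gene that p53 and growth factors induce, had the same pattern. It read 4.88 and 4.83 in scramble and 4.20 and 4.59 in shLDHA, a change of -0.46 (95% interval -0.78 to -0.14, limma adjusted p = 0.109). The value was -0.27 without shLDHA replicate 1 and -0.65 without shLDHA replicate 2. Rprm, which encodes reprimo, a factor in G2 arrest, was below the olfactory receptor level in both groups, at 4.10 ± 0.12 (SD, n = 2) in scramble and 3.96 ± 0.01 in shLDHA. Thus of the 6 cell cycle genes 2 fell, 1 rose and 3 did not pass.

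**Figure D3:**
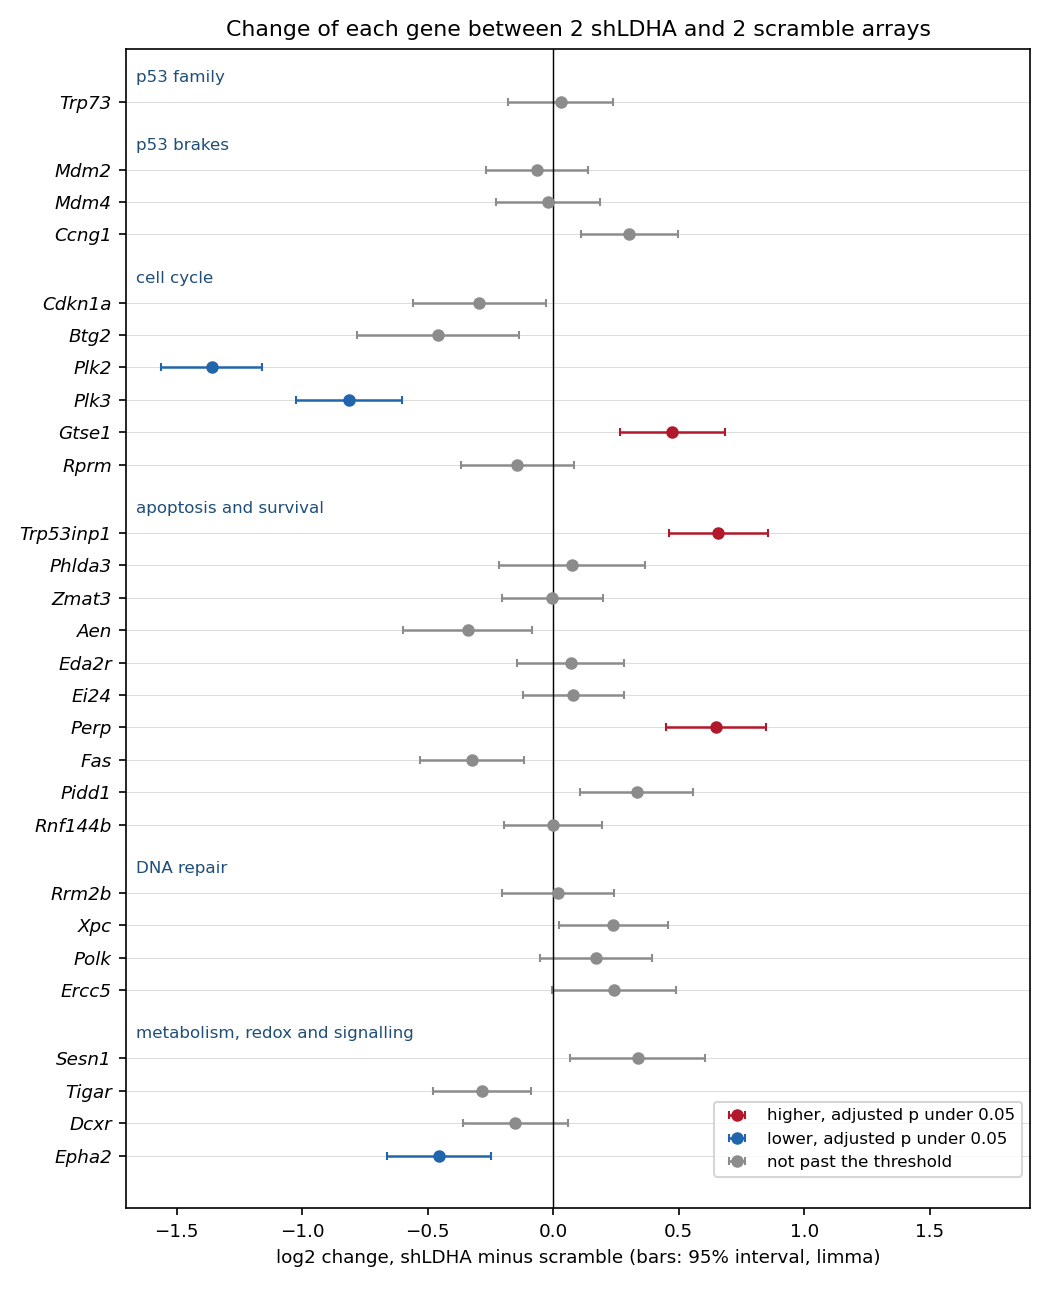
The log2 change of each of the 28 genes (points, shLDHA minus scramble, 2 arrays a group) with limma's 95% interval as bars, grouped by role. Plk2 (-1.36) and Plk3 (-0.81) lie lowest and Trp53inp1 (0.66) and Perp (0.65) highest; grey points did not pass the test even where the unadjusted interval leaves out 0.

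Among 10 genes of cell death and survival, 2 rose, 0 fell and 8 did not pass. Trp53inp1, which encodes a nuclear protein that helps p53 to induce death genes and also takes part in autophagy, read 5.78 and 5.81 in scramble and 6.43 and 6.47 in shLDHA. It rose 1.58-fold (log2 change 0.66, SE 0.08, limma adjusted p = 0.00921). The call was lost only without shLDHA replicate 2 (adjusted p = 0.0599), among 13 alternative settings.

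Perp encodes a membrane protein that is a p53 death effector and also a part of desmosomes in epithelia. It read 8.99 and 9.03 in scramble and 9.64 and 9.68 in shLDHA, a rise of 1.57-fold (log2 change 0.65, SE 0.08, limma adjusted p = 0.00965). Its arrays differed by less than 0.05 within each group. The adjusted p was 0.0502 without shLDHA replicate 1 and 0.0612 without shLDHA replicate 2, the settings in which the call was lost. The epithelial markers, given above, were mixed in the same arrays, with changes from -0.33 (Krt19) to 0.53 (Epcam), and their part in the value of Perp was not tested.

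The receptor Fas, which starts cell death when its ligand binds, read 5.83 and 5.94 in scramble and 5.55 and 5.56 in shLDHA, a change of -0.32 (95% interval -0.53 to -0.12). Aen, an exonuclease gene of apoptosis, read 5.64 and 5.57 against 5.14 and 5.39, a change of -0.34 (-0.60 to -0.08). Pidd1, which encodes a death domain protein that activates caspase 2, read 4.88 and 4.71 against 5.14 and 5.12, a change of 0.33 (0.11 to 0.56). In these 3 the groups did not overlap, as in 65.8% of all genes above the olfactory receptor level in both groups. Limma's adjusted p was 0.0869, 0.129 and 0.0990. Each of them passed once genes below the median level were left out of the test, as did Btg2, Tigar and Ccng1. That filter took the higher of the 2 group means as the level, so it is not independent of the comparison. Under it 2836 genes in all passed, against 1410 without it, so these passes are no separate support for single members.

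The rest of this group showed little difference. Phlda3, an inhibitor of Akt, read 5.51 and 5.78 in scramble and 5.62 and 5.81 in shLDHA, so its replicates were further apart than its groups. Zmat3, an RNA-binding protein of p53's tumour suppression, had a change of -0.0030 (95% interval -0.20 to 0.20), and Ei24, a protein of the endoplasmic reticulum, one of 0.08 (-0.12 to 0.28). Rnf144b, a ubiquitin ligase gene, read 4.59 and 4.56 in scramble and 4.57 and 4.57 in shLDHA, a change of 0.00. Its shLDHA values were identical (SD 0) and equal to the scramble mean of 4.57356. The source of this equality was not tested, so the 0.00 is no evidence of an unchanged transcript. Eda2r, a receptor of the TNF family, lay below the olfactory receptor level in both groups, at 2.63 and 2.70.

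The 4 DNA repair genes measured had changes above 0, and none passed the test. Xpc, which encodes the damage sensor of nucleotide excision repair, read 5.77 and 5.92 in scramble and 6.09 and 6.09 in shLDHA, a change of 0.24 (95% interval 0.02 to 0.46, limma adjusted p = 0.192). Ercc5, which encodes the nuclease XPG of the same pathway, read 6.62 and 6.80 against 6.88 and 7.03, a change of 0.24 (limma adjusted p = 0.238). In both genes the groups did not overlap, but the nearest arrays of the groups were about as close as the scramble replicates, or closer. Polk, a DNA polymerase that copies past damaged bases, read 7.48 and 7.48 against 7.73 and 7.57, a change of 0.17 (limma adjusted p = 0.368). Rrm2b, the p53-induced subunit of ribonucleotide reductase, read 7.73 and 7.71 against 7.82 and 7.66. Its groups overlapped, and the change was 0.02 (-0.20 to 0.24).

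Of the 4 genes of metabolism, redox balance and signalling, Epha2 fell and 3 did not pass. Epha2, which encodes a receptor tyrosine kinase for ephrins, read 9.96 and 10.07 in scramble and 9.57 and 9.54 in shLDHA, a fall of 1.37-fold (log2 change -0.46, SE 0.09, limma adjusted p = 0.0328). The call was lost without scramble replicate 1 (adjusted p = 0.0749), scramble replicate 2 (0.149), shLDHA replicate 1 (0.110) or shLDHA replicate 2 (0.132), and with the replicate block (0.0669). In each of these fits the change stayed between -0.51 and -0.40.

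Tigar, which encodes a phosphatase that lowers fructose 2,6-bisphosphate and so slows glycolysis, is the member nearest to the pathway of Ldha. It read 5.70 and 5.70 in scramble and 5.44 and 5.40 in shLDHA, a change of -0.28 (95% interval -0.48 to -0.09, limma adjusted p = 0.104). Sesn1, which encodes sestrin 1, a stress-induced brake on mTORC1, read 4.96 and 5.17 against 5.50 and 5.31, a change of 0.34 (0.07 to 0.61, limma adjusted p = 0.146). Dcxr, a dicarbonyl and xylulose reductase gene, had a change of -0.15 (-0.36 to 0.06). Thus Tigar was lower and Sesn1 higher on both shLDHA arrays than on both scramble arrays, without passing the test. Groups were as fully apart for 65.8% of all genes above the olfactory receptor level in both groups.

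**Figure D4:**
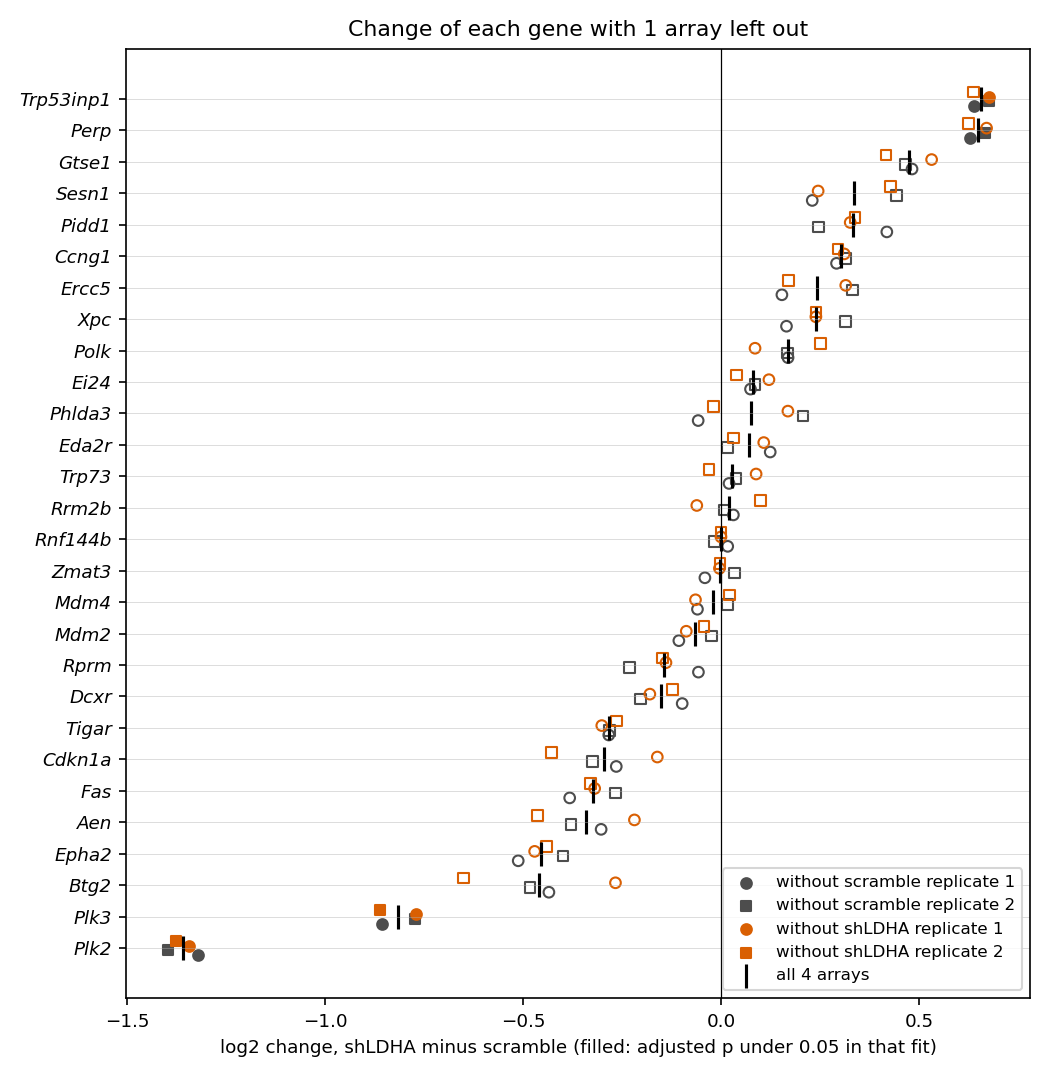
The log2 change of each of the 28 genes in 4 fits that leave out 1 array each (grey circles, grey squares, orange circles and orange squares), with the value from all 4 arrays as a black bar. Filled symbols passed the test in that fit: Plk2 and Plk3 in all 4, Trp53inp1 in 3 and Perp in 2, while Gtse1, Epha2 and the other genes have open symbols throughout.

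Other genes around p53 came from 3 lists chosen by function. Of 25 regulators measured (26 listed), 1 rose and 1 fell, with a median of 0.03; of all genes, 3.37% rose and 2.99% fell, so these counts are near the background. Chek2, which encodes a kinase that phosphorylates p53 after DNA damage, read 6.48 and 6.56 in scramble and 7.50 and 7.66 in shLDHA, and rose 2.08-fold (log2 change 1.06, SE 0.09, limma adjusted p = 0.00286). The kinase gene Hipk2, whose product phosphorylates p53 in severe damage, fell by 0.48 on the log2 scale (limma adjusted p = 0.0269), a call lost in each of the 4 fits with an array left out (adjusted p 0.0806 to 0.122) and with the replicate block (0.0587). Setd7 (-0.40, adjusted p = 0.0502), a lysine methyltransferase, and Usp7 (-0.34, adjusted p = 0.0905), a deubiquitinase of p53 and Mdm2, did not pass.

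Of 26 further p53 targets measured (33 listed), 4 rose and 1 fell, with a median of 0.05, beside the same 3.37% and 2.99% of all genes. Of the 26, 21 lay above the olfactory receptor level in both groups, where 11.5% of all genes passed in either direction. Thbs1, which encodes the angiogenesis inhibitor thrombospondin 1, rose 2.36-fold (log2 change 1.24, SE 0.09), Ddit4, an mTORC1 inhibitor, 1.99-fold and the diacylglycerol kinase gene Dgka 1.51-fold. Dram1, an autophagy gene, read 5.50 and 5.38 in scramble and 4.32 and 3.82 in shLDHA, and fell 2.59-fold (log2 change -1.37, SE 0.16). It ended below the olfactory receptor level, so its fold may understate the change. Thbs1, Ddit4 and Dram1 passed in 13 of 13 alternative settings, and Dgka lost the call in 3 of the 4 fits with an array left out (highest adjusted p = 0.0714). The fourth rise was Sesn2, named after its values were seen as the paralog of Sesn1, at 0.46 (limma adjusted p = 0.0319); it lost the call in each fit with an array left out (adjusted p 0.0855 to 0.136) and with the replicate block (0.0659). The count of rises in this list was 2 without scramble replicate 2, without shLDHA replicate 1 or without shLDHA replicate 2.

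The last list holds genes of cell division that p53 is known to lower, through p21 and the DREAM repressor complex. Of 17 measured (19 listed), 9 rose, 0 fell and 8 did not pass by limma, where 3.37% of all genes rose and 2.99% fell. All 17 lay above the olfactory receptor level in both groups, where 11.5% of all genes passed in either direction. Changes were above 0 in 17 of 17, from 0.0068 (E2f1) to 0.70 (Cdc25c), with a median of 0.40. Of all 22180 genes, 11470 had changes above 0. The phosphatase gene Cdc25c rose by 0.70, the mitotic kinase genes Plk1 and Aurkb by 0.68 and 0.57, and the topoisomerase gene Top2a by 0.61. Plk1, a driver of mitosis, thus moved opposite to its relatives Plk2 and Plk3. The count of rises rests on all 4 arrays, since it was 3 without scramble replicate 1, 2 without scramble replicate 2, 2 without shLDHA replicate 1 and 0 without shLDHA replicate 2; with the replicate block it was 4. That genes of cell division had risen in these data was known when the list was chosen.

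**Figure D5:**
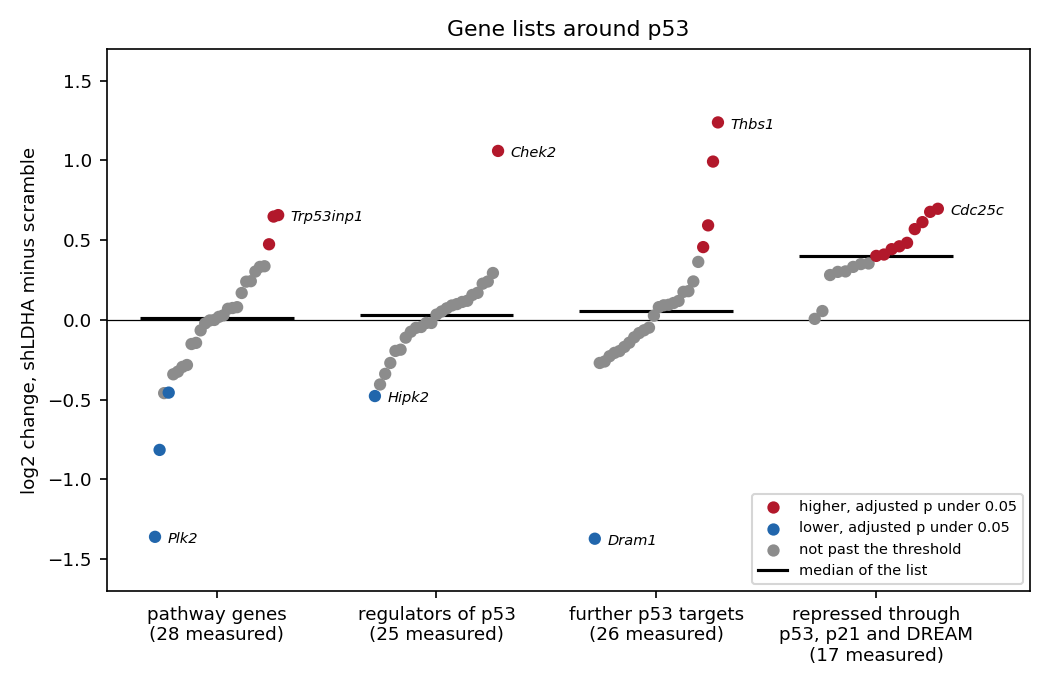
The log2 change of each measured gene (points, shLDHA minus scramble) in the 28 p53 genes and in 3 lists around p53, with the list median as a black line. The first 3 lists have medians of 0.01, 0.03 and 0.05 and calls on both sides, and the fourth has a median of 0.40 and 9 rises.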

How the data were processed

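RNA of 4 samples was measured on Affymetrix arrays. The values deposited by the authors are log2 signals from RMA (R 3.4.0), per the submitters' processing notes. The platform table named 1 gene for 23521 of 41345 probe sets, which were used; 1814 had several and 16010 had none. For the 1082 genes with several probe sets the brightest was kept, which left 22180 genes.

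The test was limma 3.58.1 (R 4.3.3; lmFit, eBayes, two-sided, no covariate) on all genes, with Benjamini-Hochberg adjustment over all of them. The fit had 2 residual and 4.52 prior degrees of freedom and a median SE of 0.09; SDs are over 2 arrays. No filter on dim genes was applied, and the number of arrays limits the precision. All 32 members are named whatever their values; further lists are given by counts and by the lowest p-values, at most 4 genes each, and Sesn2 was added after its values were seen. The members and lists were chosen with earlier results of these data known.

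The code was tested on simulated data, in 10 runs with 200 changed genes each. It recovered 10.7% of log2 changes of 0.5, 92.4% of changes of 1 and 99.7% of changes of 2. A gene that did not pass may therefore still have changed. The runs changed 200 of 22180 genes, whereas 1410 genes passed in the data. With fewer changed genes the Benjamini-Hochberg adjustment is stricter, so the shares recovered may be too low for these data. The alternatives were the replicate number as a block, 2 filters on level, quantile normalization again, median centring, averaging the probe sets of a gene, testing every probe set, eBayes with trend or robust, and leaving out each array, 13 settings in all, and a threshold of 0.1 for counts. The 2 filters on level used the higher of the 2 group means. Promoter windows came from RefSeq (GRCm38.p6). Figures were drawn with matplotlib 3.10.9.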

Additional observations from a re-analysis of the deposited data

How the results depend on the processing

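Of the 28 p53 genes, 6 passed under 6 of the 9 settings that kept all 4 arrays. The exceptions were the replicate block, under which 2 passed higher and 2 lower and 838 of all genes passed against 1410, genes at or above the median level, with 5 higher and 7 lower of 26 tested (2836 genes in all), and eBayes with trend, with 4 higher and 3 lower (2806). At an adjusted p under 0.1, 5 were higher and 4 lower (2391 genes). With an array left out, which takes a residual degree of freedom, 0 to 2 members were higher, 2 were lower and 370 to 636 genes passed. Replicate numbers are not said to mark a shared culture. The replicate 1 minus 2 differences of the groups correlated at -0.03 across genes. With 1 difference per group, that value can neither show nor exclude a shared culture. Directions turned with an array left out in 4 uncalled members: Trp73 (-0.030 to 0.089), Mdm4 (-0.064 to 0.022), Phlda3 (-0.058 to 0.21) and Rrm2b (-0.061 to 0.10). Over all alternatives, 335 values of single members kept direction and call, 13 lost the call, 7 gained it and 6 turned; a value that rounds to 0.00 was given no direction. The causes were not tested. Signals near the floor are compressed, which limits Trp73, Eda2r, Rprm and Dram1.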
